A study of Homo sapiens with 9 samples.

Results

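The transcripts of chromosome 12 were examined in 22Rv1 prostate cancer cells. After knockdown of SSX2, the median change over the genes of its short arm was the lowest among the chromosome arms compared. A member was a transcript cluster that the array assigns to chromosome 12 and whose log2 level, averaged over all 9 arrays, was at least 7. Of 67528 transcript clusters, 3254 belong to chromosome 12 and 860 of these were members. The region was singled out because knockdown minus scramble and knockdown minus wildtype were shared by neighbouring genes, so the members were chosen by their level and by both of those differences, which are given as a description without a test. Scramble minus wildtype was not named in the choice and was tested gene by gene. It equals knockdown minus wildtype less knockdown minus scramble, so it is not independent of the choice.

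22Rv1 is an established human prostate carcinoma line that expresses the cancer-testis antigen SSX2. Cells labelled KD were transfected by lipofectamine with an shRNA against SSX2, cells labelled SCR with a scrambled shRNA, and cells labelled WT were the untransfected line, with 3 arrays each. Selection was kept up with neomycin at 1 mg/ml, all cells were harvested at confluence from the same DMEM-based medium, and the sources do not say whether the transfected cells were clones or which shRNA plasmid the KD arrays carry. The arrays of a group are labelled as technical replicates, so every SD and p-value here measures only the spread between technical replicates of 1 line per group.

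The targeted gene bore out the labels, with log2 levels of the SSX2/SSX2B transcript at 5.19, 5.06 and 5.14 in the KD arrays, 11.94 in each SCR array and 11.89, 11.89 and 11.98 in the WT arrays. The array medians lay between 5.41 and 5.5, and the RNA integrity number averaged 2.50 in the labels, a low value on that scale. Of 7 luminal prostate markers measured, all 7 were at a level of at least 7 in SCR and in WT, but 3 (KRT8, KRT18 and EPCAM) were in KD, where KLK2 was at 5.52, KLK3 at 6.29, TMPRSS2 at 6.36 and HOXB13 at 6.44. Leukocyte and endothelial markers (4 of each measured) were all below 7 in every group, and of 5 fibroblast markers 0 were above it in KD and 1 in each control. The part of these marker differences in the results below was not tested. In bulk RNA, fewer cells of a type and less RNA per cell cannot be told apart.

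A centromere divides each human chromosome into a short and a long arm. The short arm of chromosome 12 carries a dense group of housekeeping and metabolic genes near its end, among them those for the glycolytic enzymes GAPDH and TPI1, then a cluster of lectin-like receptors used by natural killer cells, and, towards the centromere, CDKN1B, which encodes the cell cycle inhibitor p27. The long arm carries the type II keratins, the HOXC cluster and MDM2, which encodes the ubiquitin ligase of p53.

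Of the 860 members, 544 stand for 1 gene each that could be placed on the chromosome, 120 on the short and 424 on the long arm. A further 3 were second transcripts of a placed gene, 19 carry several symbols and 294 carry none. Genes were ordered by their RefSeq starts (GRCh38.p14), which served for names and neighbour order alone, since no source read here names the build of the array annotation. The arms were divided at the widest gap between gene starts, between AK6P1 and ZNF970P. Just inside the level limit lay TSPAN11 (mean level 7.01), AGAP2 (7.02) and MMP17 (7.03), and just outside it DDX11-AS1 (6.99), MORN3 (6.98) and P2RX2 (6.96).

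The 250 bases before the most upstream RefSeq start are shown for 6 genes that carry the comparison: the lowest and highest short arm gene in KD against SCR (FAR2 and BCAT1), the cell cycle inhibitor gene CDKN1B, the brightest short arm gene (GAPDH), and a gene on either side of the centromere (YARS2 and CPNE8). All are from GRCh38.p14 and are written 5′ to 3′ on the gene's strand, FAR2 at chr12:29149028-29149277 (+), CDKN1B at chr12:12717118-12717367 (+), BCAT1 at chr12:24949341-24949590 (-), GAPDH at chr12:6535014-6535263 (+), YARS2 at chr12:32755898-32756147 (-) and CPNE8 at chr12:38905592-38905841 (-). Capitals mark every match to 3 promoter motifs on either strand. The GC box core was searched as GGGCGG, the CCAAT box as its 5 named letters and the TATA box as TATAAA, each together with its reverse complement. No motif is contained in another.
FAR2: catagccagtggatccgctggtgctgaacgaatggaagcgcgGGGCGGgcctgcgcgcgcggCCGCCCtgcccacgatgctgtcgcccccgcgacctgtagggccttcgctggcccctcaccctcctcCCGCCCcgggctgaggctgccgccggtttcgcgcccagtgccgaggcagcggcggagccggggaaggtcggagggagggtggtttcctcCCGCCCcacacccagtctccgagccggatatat
CDKN1B: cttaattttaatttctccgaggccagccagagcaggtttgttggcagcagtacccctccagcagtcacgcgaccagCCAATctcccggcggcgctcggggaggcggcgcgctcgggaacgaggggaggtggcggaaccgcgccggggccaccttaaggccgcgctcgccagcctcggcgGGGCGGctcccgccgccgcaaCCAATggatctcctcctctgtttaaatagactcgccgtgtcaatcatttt
BCAT1: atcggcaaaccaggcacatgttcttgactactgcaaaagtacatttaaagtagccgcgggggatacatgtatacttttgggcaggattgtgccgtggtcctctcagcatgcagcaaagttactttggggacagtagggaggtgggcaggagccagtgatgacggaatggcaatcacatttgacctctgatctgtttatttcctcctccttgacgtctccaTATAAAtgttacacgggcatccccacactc
GAPDH: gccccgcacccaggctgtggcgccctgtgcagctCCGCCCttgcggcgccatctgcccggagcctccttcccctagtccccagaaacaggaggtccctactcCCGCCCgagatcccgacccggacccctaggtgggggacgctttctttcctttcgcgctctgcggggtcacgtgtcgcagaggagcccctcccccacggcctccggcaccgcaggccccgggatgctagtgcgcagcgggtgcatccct
YARS2: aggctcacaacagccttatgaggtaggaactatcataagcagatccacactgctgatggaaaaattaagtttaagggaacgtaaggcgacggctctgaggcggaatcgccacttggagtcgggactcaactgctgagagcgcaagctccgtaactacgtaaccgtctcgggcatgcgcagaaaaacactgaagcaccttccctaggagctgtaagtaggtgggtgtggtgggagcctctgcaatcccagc
CPNE8: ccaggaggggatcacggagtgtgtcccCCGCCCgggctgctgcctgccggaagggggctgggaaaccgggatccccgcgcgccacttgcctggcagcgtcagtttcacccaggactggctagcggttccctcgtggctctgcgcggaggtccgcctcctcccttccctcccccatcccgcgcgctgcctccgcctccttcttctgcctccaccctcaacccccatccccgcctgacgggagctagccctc

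The windows differed in composition. GC content was 72.8% in FAR2, 64.4% in CDKN1B, 48.8% in BCAT1, 71.2% in GAPDH and in CPNE8, and 52.8% in YARS2. FAR2, the lowest short arm gene, held 4 GGGCGG matches, CDKN1B held 2 CCAAT matches and 1 GGGCGG match, and BCAT1 held a single TATAAA. YARS2 held none of the 3 motifs. RefSeq windows were matched for 89 of the 120 short arm genes and 343 of the 424 long arm genes. GGGCGG occurred in 66.3% of the short arm windows, 72.3% of the long arm windows and 42.2% of the 27303 genes in the table, and CCAAT in 30.3%, 39.7% and 33.0%. TATAAA occurred in 8.99% of short arm windows (8 genes), 3.79% of long arm windows (13 genes) and 11.2% of all. The median GC content was 61.6% for the short arm, 64.8% for the long arm and 57.6% for all genes. The genes of the table were not held to the level limit that the arm genes passed. The sets are therefore unlike, and nothing about chromosome 12 is read from their differences. A match is a string of letters in this window and not evidence of a bound factor.

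Along the chromosome the differences fell into 2 levels. The median of KD minus SCR over the 120 short arm genes was -0.54 on the log2 scale (quartiles -0.86 and -0.12), which is 0.69 of the SCR level. Over the 424 long arm genes it was -0.24 (quartiles -0.50 and 0.02), or 0.84 of the SCR level. Over 9134 placed genes of the other chromosomes at the same minimum level it was -0.04, and over all 67528 transcript clusters -0.06. Against WT the medians were -0.55 for the short arm, -0.20 for the long arm and -0.04 for other chromosomes. The 2 differences share the KD arrays.

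**Figure D1:**
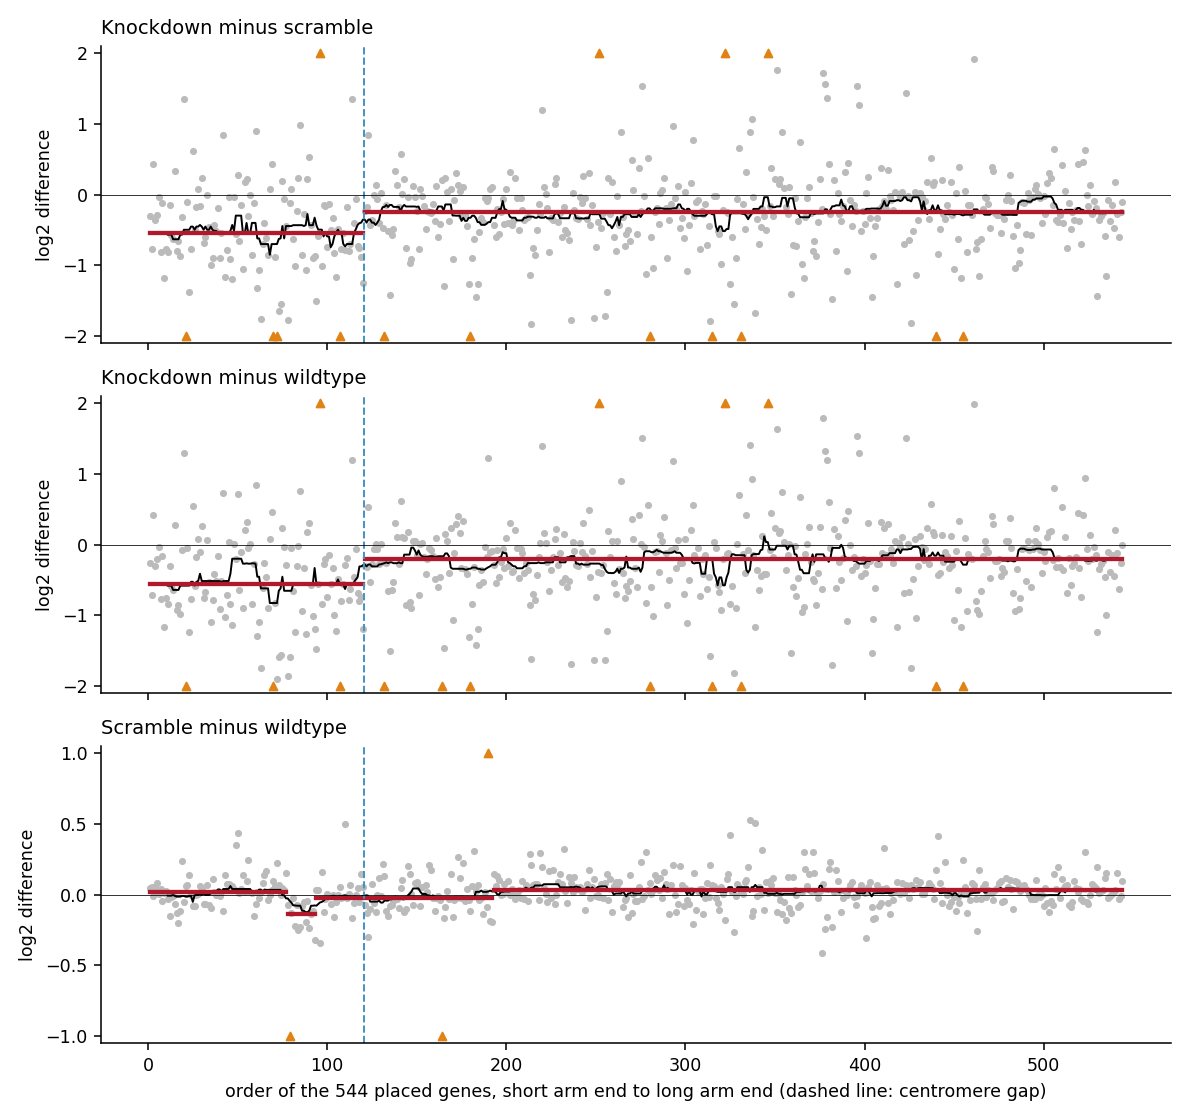
Log2 differences of the 544 placed genes (grey points) in order from the end of the short arm to the end of the long arm, for KD minus SCR, KD minus WT and SCR minus WT; black lines are running medians of 21 genes, red bars the medians of the segments found, orange triangles values beyond the axis, and the dashed line the centromere gap. In both KD panels the red bar steps up at the dashed line, from -0.54 to -0.24 in the top panel.

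In each KD array the short arm stood below both controls. Its median, taken as each gene's level minus its mean over the 6 control arrays, was -0.575, -0.493 and -0.522 in the 3 KD arrays and between -0.023 and 0.012 in the 6 control arrays. The long arm medians were -0.258, -0.205 and -0.223 in the KD arrays and between -0.033 and 0.019 in the controls. Genes of other chromosomes had medians of -0.056, -0.015 and -0.031 in the KD arrays. The short arm was the lower arm in all 3 KD arrays, and its KD and control values did not overlap. The region was chosen by the KD differences from both controls, and the arrays of a group are technical replicates. The separation therefore describes the choice and does not test it, and its repetition over the KD arrays adds no independent support.

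**Figure D2:**
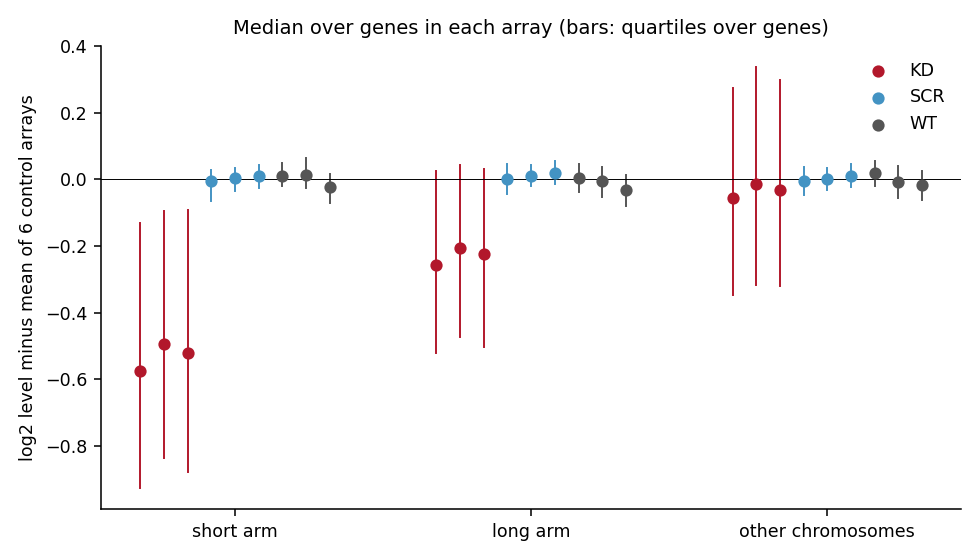
Median over genes of the log2 level minus the mean of the 6 control arrays, for each of the 9 arrays (points, coloured by group), for the short arm (120 genes), the long arm (424 genes) and genes of other chromosomes (9134 genes); bars are quartiles over genes. The KD points lie at -0.575 to -0.493 for the short arm and the control points near 0.

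KD minus SCR was below 0 in 99 of the 120 short arm genes (82.5%) and in 309 of the 424 long arm genes (72.9%). It was also below 0 in 53.9% of placed genes of other chromosomes, 62.6% of all transcripts and 59.1% of those at a level of at least 7. On the short arm, 95 genes were below 0 in both KD differences and 19 above 0 in both. At a Bonferroni-adjusted p under 0.05 in limma, which called 4.68% of all transcripts lower and 4.08% higher in KD minus SCR (11.7% and 9.35% of those at a level of at least 7), 181 members were lower and 35 higher, of which 51 lower and 5 higher were short arm genes (42.5% and 4.17%) and 82 lower and 19 higher were long arm genes (19.3% and 4.48%). The count of lower members ranged from 106 to 157 when 1 array was left out. In KD minus WT, where 4.49% of all transcripts were lower and 4.13% higher (11.2% and 9.6% at a level of at least 7), the counts were 188 and 37 over all members and 56 and 6 over the short arm genes. All 3 KD arrays lay below all 6 control arrays for 89 short arm genes (74.2%), 249 long arm genes (58.7%) and 24.9% of all transcripts (42.3% of those at a level of at least 7), and above all 6 for 18 short arm genes (15%), 74 long arm genes (17.5%) and 15.1% of all transcripts (29.7% of those at a level of at least 7). These counts and calls rest on the differences used in the choice, so nothing is read from them.

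**Figure D3:**
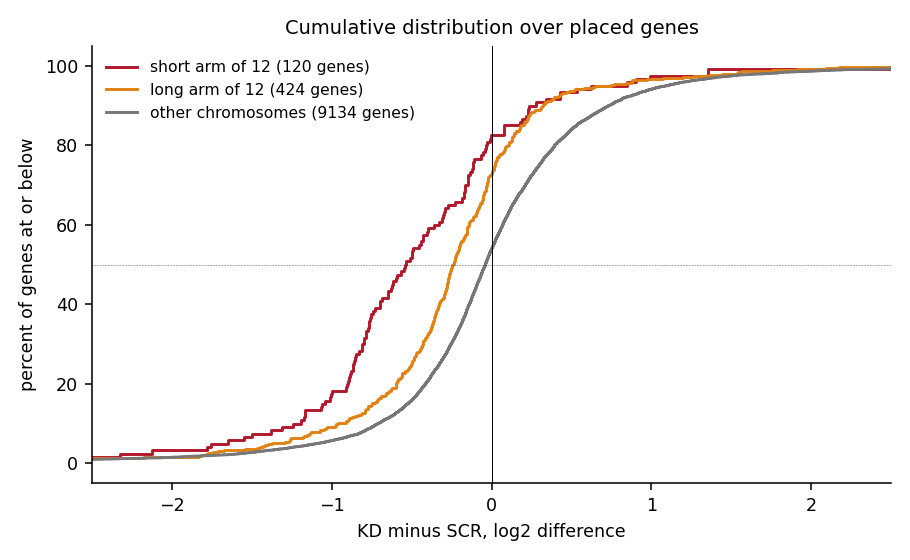
Percent of placed genes at or below each value of KD minus SCR (log2 difference), for the short arm of chromosome 12 (120 genes), its long arm (424 genes) and the other chromosomes (9134 genes). The short arm curve lies to the left of the long arm curve up to about 0, and both lie to the left of the other chromosomes, with medians of -0.54, -0.24 and -0.04.

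Among the members, the short arm shift was similar at all levels. Its median of KD minus SCR was -0.50, -0.56 and -0.54 over its 40 dimmest, 40 middle and 40 brightest genes, and on the long arm, in 3 like groups, -0.21, -0.25 and -0.28. Genes just below the level limit showed less: at a mean of 5.5 to 7 the median was -0.12 over 82 short arm genes, -0.09 over 198 long arm genes and -0.07 over 5596 genes of other chromosomes. Of the 120 short arm genes, 110 are protein-coding, with a median of -0.54, against -0.24 for the 398 protein-coding genes of the long arm. The 294 members without a symbol had a median of -0.20, compared with -0.14 over 5919 such transcripts of other chromosomes. By the order of the array identifiers, 30 of them could be put on the short arm (median -0.22, 0 called) and 94 on the long arm (-0.15, 3 higher and 7 lower), so the arms differed less there. The other 170 could not be placed. The 19 members with several symbols had a median of -0.40.

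The step lay at the centromere. When the 544 genes were divided into 1 to 6 stretches of at least 10 genes by least absolute deviations, with a penalty for each further stretch, KD minus SCR and KD minus WT each gave 2 stretches with a single border, after the 120th gene, ALG10, and before RNA5SP358. The border fell there in 5 of the 6 divisions of single KD arrays against a control mean, and 1 gene later, between RNA5SP358 and RNA5SP359, for the second KD array against WT. It stayed when any 1 array was left out and without ALG10 and DDX11. It was not found in KD minus SCR when members were taken from a mean of at least 6, nor with squared in place of absolute deviations, and with squared deviations the border of KD minus WT moved by 67 genes onto the long arm, between ACVR1B and NR4A1.

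The levels of the genes next to the border are given by array. The border was found from these same values, so they describe it and do not test it. YARS2, the mitochondrial tyrosyl-tRNA synthetase, was at 7.14, 7.24 and 7.27 in KD, 7.93, 8.02 and 7.96 in SCR and between 7.97 and 8.08 in WT, so that all KD arrays were lower. PKP2, the desmosomal plaque protein plakophilin 2, was at 7.43, 7.41 and 7.32 in KD, 8.33, 8.28 and 8.20 in SCR and 8.18, 8.14 and 8.05 in WT. ALG10, which adds the last glucose to the sugar chain used in N-glycosylation, was at 7.92, 7.83 and 7.79 in KD, 9.10, 9.06 and 9.11 in SCR and 9.00, 9.08 and 9.01 in WT. KD minus SCR of these 3 genes was -0.75, -0.88 and -1.24 on the log2 scale. Across the gap, the 5S ribosomal RNA pseudogene RNA5SP358 was at 7.88, 7.87 and 7.95 in KD and 8.14, 8.12 and 8.15 in SCR. In WT it was at 8.28, 8.18 and 8.17, so all its KD arrays were also lower, by smaller differences (-0.24 against SCR and -0.31 against WT). The KD and control arrays of RNA5SP359, a like pseudogene, overlapped. CPNE8, a calcium-dependent membrane-binding protein of the copine family, is the first protein-coding gene among those placed on the long arm. It was higher in KD, at 8.42, 8.30 and 8.29 against 7.44, 7.47 and 7.58 in SCR and 7.76, 7.83 and 7.82 in WT.

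Wider flanks were taken from the same values that set the border, so they describe the size of the step and do not test it. The last 10 short arm genes (TSPAN11 to ALG10) had a median KD minus SCR of -0.71 and 9 were below 0, while the first 10 long arm genes (RNA5SP358 to TWF1) had -0.12 with 6 below 0. Over 20 genes on each side the medians were -0.71 and -0.21, and over 40 genes -0.61 and -0.20.

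Some neighbours of the border have near-identical copies, which limits what their probes measure. The gene ALG10 lies on the short arm and its copy ALG10B on the long arm, and the member annotated to both went from 8.84, 8.83 and 8.91 in SCR to 7.53, 7.51 and 7.42 in KD, alongside ALG10 itself. DDX11, a DNA helicase, and the member shared with its pseudogene DDX12P were both at -0.80 in KD minus SCR. Without ALG10 and DDX11 the short arm median was -0.52.

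Within the short arm the shift was uneven. In 6 blocks of 20 genes from the end of the arm inwards, the medians of KD minus SCR were -0.46 (WASH8P to TNFRSF1A), -0.47 (SCNN1A to USP5), -0.22 (TPI1 to GABARAPL1), -0.78 (KLRA1P to ATF7IP), -0.51 (WBP11 to TM7SF3) and -0.71 (MED21 to ALG10). On the long arm, 21 blocks of 20 or 21 genes had medians from -0.36 (ANKRD52 to LRP1) to 0.02 (NR2C1 to UTP20). The short arm block from TPI1 to GABARAPL1 thus lay within the range of the long arm blocks and the other 5 lay below all of them. In KD minus WT that block was at -0.15, and with members from a mean of at least 6 that difference was divided into 3 stretches, with medians of -0.17 up to GABARAPL1, -0.56 from KLRA1P to ALG10 and -0.17 on the long arm. The longest run of neighbours all below 0 was 17 genes on the short arm, from ITPR2 to SINHCAF with a median of -0.70, and it was also 17 genes on the longer list of the long arm, from SNORA70G to KRR1 with a median of -0.30.

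The largest falls on the short arm were far beyond the common shift. FAR2, a peroxisomal reductase that makes fatty alcohols, was at 4.87, 4.79 and 5.06 in KD, 9.55, 9.58 and 9.50 in SCR and 9.49 in each WT array, a KD minus SCR of -4.64 on the log2 scale. MANSC1, a membrane protein, was at 6.09, 5.93 and 5.87 in KD, 9.50, 9.52 and 9.53 in SCR and 9.49, 9.38 and 9.39 in WT. SCNN1A, the alpha subunit of the epithelial sodium channel, was at 6.91, 6.87 and 6.84 in KD, 9.20, 9.22 and 9.15 in SCR and 9.16, 9.15 and 9.10 in WT. In these genes the 3 KD arrays sat together, more than 2 log2 units under every control array. DUSP16, a phosphatase that inactivates the kinases JNK and p38, was at 6.98 ± 0.12 in KD, 9.11 ± 0.02 in SCR and 8.88 ± 0.02 in WT (SD, n = 3). FAM234B was at 7.69 ± 0.06 in KD, 9.47 ± 0.03 in SCR and 9.54 ± 0.02 in WT (SD, n = 3). CDKN1B, the gene of the cell cycle inhibitor p27, was at 8.30, 8.26 and 8.21 in KD, 9.79, 9.82 and 9.81 in SCR and 9.83, 9.86 and 9.74 in WT, or -1.55 in both KD differences. It closed the longest run of genes below the short arm median, the 5 neighbours MANSC1, BORCS5, DUSP16, CREBL2 and CDKN1B, whose median was -1.65.

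Some short arm genes ran against the arm. Of the 120, 21 were above 0 in KD minus SCR and 5 were called higher (4.17%). The share called higher was 4.08% over all transcripts and 9.35% over those at a level of at least 7. BCAT1, the cytosolic aminotransferase of branched-chain amino acids, was at 10.24, 9.97 and 9.94 in KD, 5.63, 5.72 and 5.75 in SCR and 6.06, 5.92 and 6.14 in WT, a KD minus SCR of 4.35 (log2). Its neighbours ETNK1 (-0.59), an ethanolamine kinase, and ITPR2 (6.72, 6.72 and 6.68 in KD, 7.655 or above in SCR), a calcium release channel of the endoplasmic reticulum, were lower in KD, so the change of BCAT1 was not shared. DENND5B, a DENN-domain protein that acts on Rab GTPases, was at 8.40, 8.37 and 8.37 in KD, 7.02, 7.05 and 7.01 in SCR and 7.20, 7.23 and 7.15 in WT. TNFRSF1A, the main receptor of tumour necrosis factor, was at 10.20, 10.10 and 10.03 in KD, 8.82, 8.70 and 8.75 in SCR and 8.87, 8.76 and 8.78 in WT. It borders SCNN1A, one of the 3 lowest genes of the arm, so these neighbours moved in opposite directions. MGST1, a membrane-bound glutathione transferase, was higher by 0.99 on the log2 scale and VAMP1, a synaptobrevin of secretory vesicles, by 0.62. GABARAPL1, an autophagy protein of the ATG8 family, was at 7.61 ± 0.19 in KD, 6.71 ± 0.02 in SCR and 6.78 ± 0.10 in WT (SD, n = 3), a difference of 0.90 that was not called.

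The remaining 15 genes above 0 had differences of 0.08 to 0.85. The largest of these was the pseudogene DSTNP2 (0.85), followed by GOLT1B (0.54), a Golgi transport protein, LRP6 (0.43), a co-receptor of Wnt ligands, CCDC77 (0.43) and TEAD4 (0.34), a transcription factor of the Hippo pathway. CLSTN3, RECQL, DERA, CHD4, RIMKLB, DDX47, FAM86FP, ETV6, ATF7IP and GAPDH made up the rest. In ETV6, ATF7IP and DERA the KD arrays overlapped the control arrays.

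Of the 5 brightest short arm genes, PHB2 was called lower in KD minus SCR, MLF2, LDHB and PHB2 were called lower in KD minus WT, and GAPDH and LPCAT3 were called in neither. GAPDH was at 12.62, 12.64 and 12.60 in KD, 12.55, 12.54 and 12.53 in SCR and 12.53, 12.53 and 12.54 in WT, a difference of 0.08. GAPDH has many pseudogenes, and its probes may also measure those. MLF2 was at 10.81 ± 0.03 in KD, 11.27 ± 0.03 in SCR and 11.34 ± 0.03 in WT (SD, n = 3). PHB2, a prohibitin of the inner mitochondrial membrane, was at 10.19, 10.24 and 10.18 in KD, 11.12, 11.11 and 11.11 in SCR and 11.07, 11.02 and 11.04 in WT. LDHB, a subunit of lactate dehydrogenase, was at 10.43 ± 0.03 in KD, 10.86 ± 0.01 in SCR and 11.00 ± 0.02 in WT (SD, n = 3). LPCAT3, which remodels membrane phospholipids, was lower than SCR by 0.55 and lower than WT by 0.20, since SCR exceeded WT by 0.35 on the log2 scale.

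**Figure D4:**
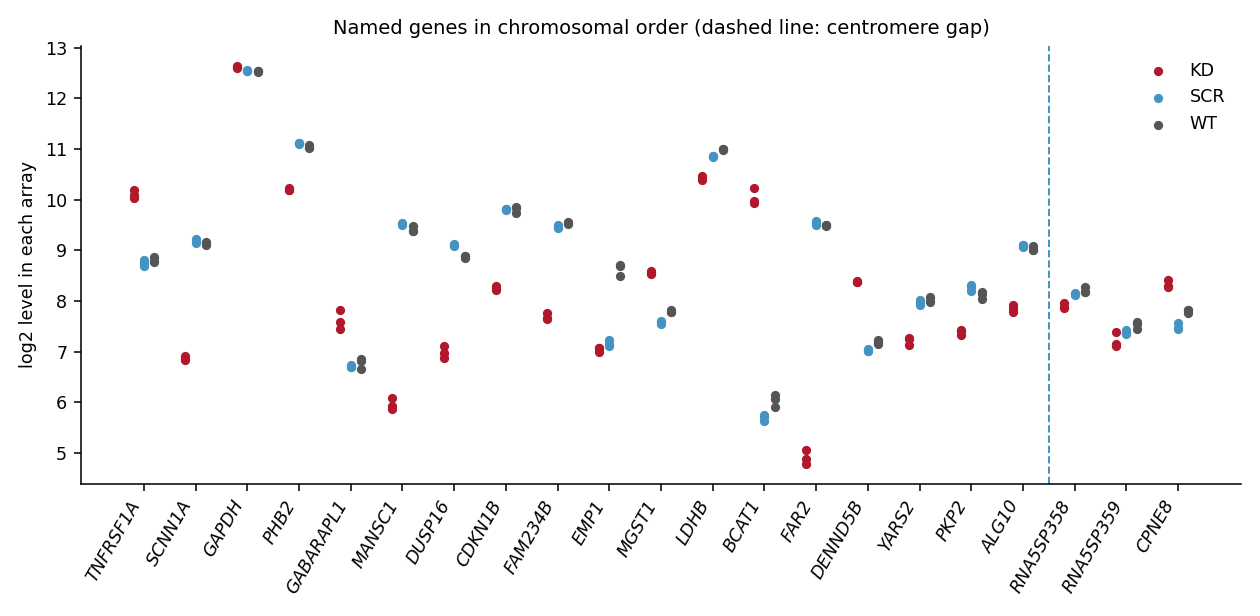
Log2 level of 21 named genes in each of the 9 arrays (points; KD red, SCR blue, WT grey), in order along the chromosome, with the centromere gap dashed. KD points lie below the controls in most short arm genes, as in FAR2 (4.87, 4.79 and 5.06 in KD), above them in BCAT1 (10.24, 9.97 and 9.94), and close to them in RNA5SP358 and RNA5SP359.

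On the long arm the lowest gene lay below the lowest of the short arm, and the highest lay below the highest of the short arm. PTPRB, a receptor tyrosine phosphatase best known from endothelium, was at 4.55, 4.49 and 4.49 in KD, 10.21, 10.23 and 10.24 in SCR and 10.15, 10.22 and 10.11 in WT, a KD minus SCR of -5.72. LIN7A, a scaffold protein of cell junctions, differed by -4.86, TMT1A, a thiol methyltransferase, by -3.72, the T-box transcription factor TBX3 by -3.69 and SRRM4, a regulator of neural splicing, by -3.11. At the other end, PHLDA1 was at 10.17, 9.77 and 9.74 in KD against 6.34, 6.42 and 6.39 in SCR, a difference of 3.51. RBMS2, an RNA-binding protein, was higher by 2.17, FGD6, an exchange factor for CDC42, by 2.09, paxillin (PXN), a focal adhesion adaptor, by 1.91, and the ETS factor ELK3 by 1.76. Of the 424 genes, 99 lay below the short arm median. The longest run of them was 6 genes, DIP2B, TMT1A, SLC11A2, LETMD1, CSRNP2 and POU6F1, with a median of -1.26. Among these SLC11A2, an iron transporter, was at 8.17, 8.18 and 8.08 in KD, 9.03, 9.04 and 9.04 in SCR and 8.94, 9.05 and 8.94 in WT, and LETMD1 (-0.63) was not called.

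Compared with the other chromosomes, the short arm was at the end of the range. Of 41 chromosome sides with at least 20 placed genes, divided at each chromosome's widest gene gap, it had the lowest median in KD minus SCR and in KD minus WT. The next lowest in KD minus SCR were the long sides of chromosome 18 (-0.36), 4 (-0.26) and 12 (-0.24), and the long arm of chromosome 12 ranked sixth in KD minus WT. The highest were the short sides of chromosomes 18 (0.74) and 5 (0.70) and the long side of 14 (0.31). Medians were below 0 on 21 sides. In SCR minus WT no side's median exceeded 0.035 in size, and the short arm of chromosome 12 was at 0.00. The quartiles of the short arm (-0.86 and -0.12) were 0.74 apart, against 0.52 on the long arm and 0.62 over other chromosomes.

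**Figure D5:**
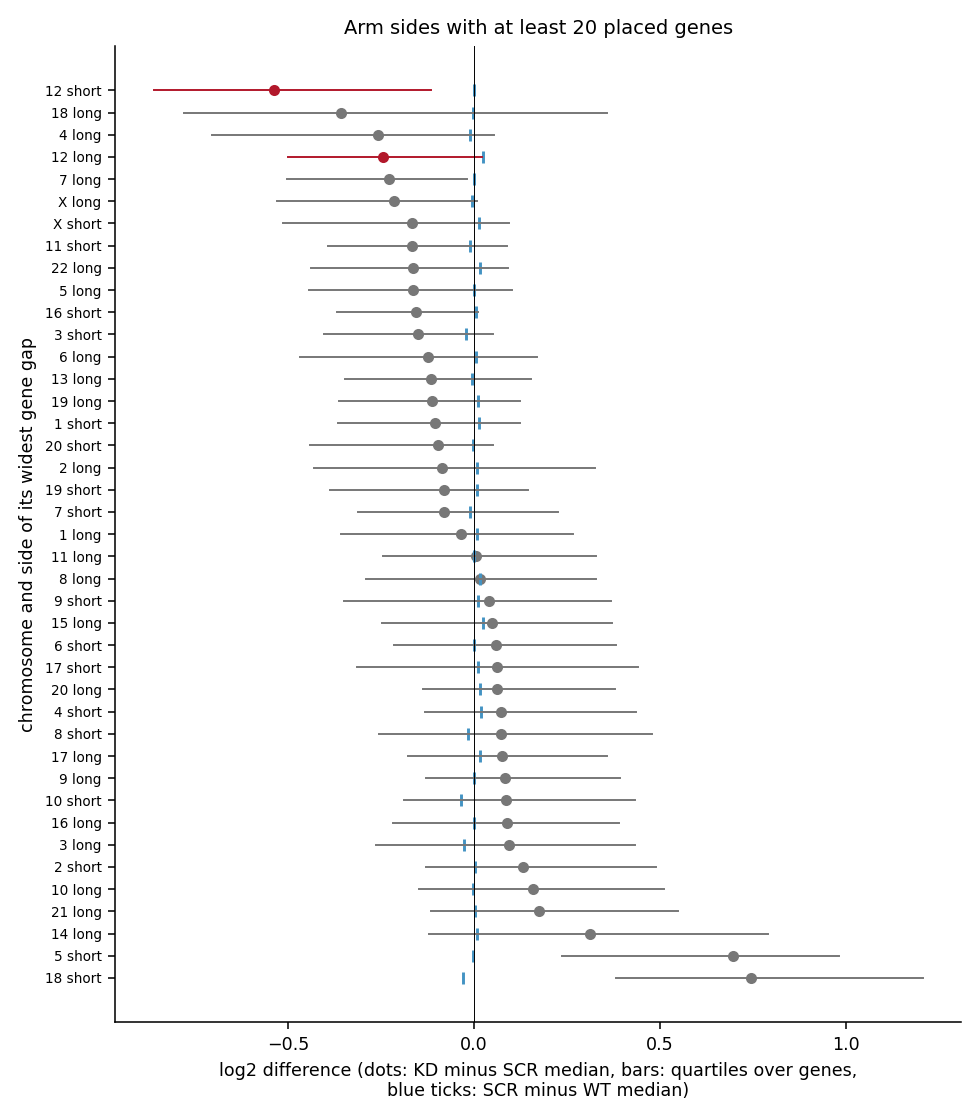
Median KD minus SCR (dots) with quartiles over genes (bars), and median SCR minus WT (blue ticks), for 41 chromosome sides with at least 20 placed genes, all on a log2 scale and sorted by the dots; chromosome 12 is red. The short side of chromosome 12 is at the top with -0.54 and the short side of 18 at the bottom with 0.74, while every blue tick lies within 0.035 of 0.

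The 2 control groups differed little on chromosome 12. SCR minus WT had a median of 0.00 over the short arm genes and 0.02 over the long arm genes. It is what separates the KD differences used in the choice, so these medians are a description and not a test. At a Bonferroni-adjusted p under 0.05 in limma, which called 0.141% of all transcripts higher and 0.074% lower (0.349% and 0.139% at a level of at least 7), 2 members were higher and 2 lower of 860. EMP1, an epithelial membrane protein, was the called short arm gene, at 8.71, 8.69 and 8.49 in WT, 7.15, 7.24 and 7.12 in SCR and 7.075, 7.075 and 6.995 in KD (SCR minus WT -1.46, SE 0.07 by limma, adjusted p = 0.000186). C1QL4, a secreted protein of the C1q family, was at 10.42, 10.38 and 10.06 in WT, 6.75, 6.94 and 6.97 in SCR and 7.11, 7.05 and 7.11 in KD (-3.40, limma adjusted p = 2.07e-06). KRT7, a type II keratin, was at 9.08, 8.91 and 9.04 in WT and 10.31, 10.27 and 10.28 in SCR (1.28, limma adjusted p = 0.000101), and its KD arrays, at 10.28, 10.24 and 10.19, stood with SCR. KD minus SCR in these 3 genes was -0.12, 0.20 and -0.05, and WT stood apart from both transfected groups. The fourth, a member without a symbol, was at 6.44, 6.41 and 6.55 in WT, 7.12, 7.19 and 7.15 in SCR and 12.04, 12.11 and 12.10 in KD (SCR minus WT 0.68, limma adjusted p = 0.016), the highest KD minus SCR of all members (4.93). Its SCR minus WT call was lost in 8 of the 9 fits that left out an array (all but the fit without WT 3), in the fit of those 2 groups alone and with the replicate block.

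A small stretch of the short arm was nonetheless lower in SCR than in WT. The same division applied to SCR minus WT gave 4 stretches, of which the 16 genes from FAM234B to CMAS had a median of -0.13 and the others 0.02 (WASH8P to HEBP1), -0.02 (C2CD5 to KRT18) and 0.03 (EIF4B to ZNF268). Against the WT mean, the 16 genes had medians of -0.151, -0.139 and -0.125 in the 3 SCR arrays, where every one of the 16 was below the WT mean in each array, and of -0.021, 0.025 and -0.014 in the WT arrays. All SCR arrays lay below all WT arrays in 10 of the 16, and did so in 8.84% of all transcripts and 14.5% of those at a level of at least 7. Values ran from -1.46 (EMP1) to -0.03 (WBP11), and without EMP1 the median was -0.13. By single SCR arrays the stretch varied in length. In SCR 1 it ran over 63 genes from FAM234B to RPAP3, across the centromere and onto the long arm. In SCR 2 it ran from EMP1 to CMAS and in SCR 3 from FAM234B to CMAS. None of its genes other than EMP1 was called, and the stretch was found from these same values, so it has no test. The stretch of 16 genes does not border the centromere, and no border of SCR minus WT fell there.

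The members were also grouped by function. Lists were drawn up from general knowledge, and their members are counted here as called lower or higher in KD minus SCR, beside shares of 42.5% lower and 4.17% higher over all short arm genes, 19.3% and 4.48% over all long arm genes, and 11.7% and 9.35% over all transcripts at a level of at least 7. Among ribosome, translation and RNA processing genes, 4 of 9 short arm genes were lower (median -0.70) against 1 of 24 on the long arm (-0.19), the latter being PAN2, a deadenylase, at 7.56, 7.46 and 7.37 in KD and 9.22, 9.18 and 9.21 in SCR, while MARS1, the methionyl-tRNA synthetase, was the highest of the list (0.48, not called). Among mitochondrial proteins, 4 of 6 short arm genes were lower and 1 higher (median -0.85) against 4 lower and 2 higher of 17 on the long arm (-0.30). That list includes FAR2, which is peroxisomal, and MGST1, which is also microsomal. TXNRD1, a largely cytosolic thioredoxin reductase, was its highest long arm gene, at 10.88, 10.78 and 10.79 in KD against 9.10, 9.09 and 9.10 in SCR. Among membrane trafficking and cytoskeleton genes, 8 of 19 short arm genes were lower and 1 higher (-0.54), against 5 lower and 1 higher of 27 on the long arm (-0.22). The short arm genes of that list include KLHL42 (-1.17), an adaptor of a ubiquitin ligase, and the Mediator and Integrator subunits MED21 and INTS13, which have other roles. These medians stand beside -0.54 and -0.24 for all genes of the arms. Whether a list differs from its arm was not tested.

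In the other lists, to be read beside the same shares (42.5% of short arm and 19.3% of long arm genes lower, 4.68% of all transcripts), the arm medians were closer or in the opposite order. Cell cycle and replication genes had medians of -0.24 on the short arm (1 of 6 lower, CDKN1B) and -0.25 on the long arm (2 of 24 lower), and RACGAP1, needed for cytokinesis, was its highest at 0.31. Genes of RAS, MAPK and growth signalling were lower on the long arm (-0.50, 4 lower and 2 higher of 13) than on the short arm (-0.23, 3 of 7 lower), with DUSP6, a phosphatase of ERK, at 8.12, 7.62 and 7.45 in KD and 6.71, 6.63 and 6.63 in SCR. Transcription and chromatin regulators had medians of -0.37 (3 of 8 lower) and -0.27 (8 lower and 1 higher of 29). Glycolysis and carbohydrate genes had -0.54 (3 of 5 lower) and -0.38 (1 of 4 lower). Apoptosis and p53 pathway genes had a median of 0.44 over 4 short arm genes, of which TNFRSF1A and MGST1 were higher and CDKN1B was lower, and -0.01 over 10 long arm genes, where BTG1, an antiproliferative factor, was at 7.85, 7.65 and 7.49 in KD, 9.30, 9.36 and 9.36 in SCR and 8.83, 8.84 and 8.83 in WT. The keratins KRT7, KRT8 and KRT18 were not called in KD minus SCR (median 0.08). Of the list for the lectin receptor cluster of natural killer cells and its neighbours, CD9, a tetraspanin, was the member (-0.31, not called). KLRA1P, a pseudogene of that receptor family, was not on the list but was a member, and was called lower (-1.31).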

How the data were processed

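RNA of 9 samples was hybridised to Affymetrix Human Transcriptome Array 2.0 chips. The deposited values are log2 intensities, which the authors normalized by RMA in Expression Console, with Transcriptome Analysis Console 3.0 named for their comparison. No value was transformed again. Of 70523 rows of the value table, 67528 are transcript clusters and were fitted with limma 3.58.1 (R 4.3.3), with 1 mean per group over all 9 arrays and Bonferroni adjustment. The authors' methods name a one-way ANOVA, which was run as an alternative. Arrays carry no read depth, so their number limits the precision. Of 547 members with 1 symbol, 540 matched RefSeq by gene identifier and 7 by symbol, and the brightest transcript stands for a gene. Segments were found by exact dynamic programming in Python 3.11.15, and both procedures were also run on simulated data. For limma the simulated noise was independent between transcripts and had the spread within groups. It therefore does not cover variation between lines or shifts shared by neighbours. Promoter sequences are from RefSeq (GRCh38.p14).

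The members, gene lists and the rule for named genes (the 3 genes on each side of the border, the 5 lowest and 5 highest of each arm, the 5 brightest short arm genes, the extremes of each list, members called between controls, the longest long arm run under the short arm median, and short arm genes above 0) were chosen with earlier results of these data known. Alternatives were other corrections, fits, scalings, level limits, segment rules and each array left out. The arrays' numbers were not used as pairs, because same-numbered arrays deviated together with correlations of only -0.017 to 0.159. Among the members, 5 share all 9 values with another member and none of these was a placed gene.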

Additional observations from a re-analysis of the deposited data

How the results depend on the processing

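The direction of both arm medians and the order of the arms held under every alternative run. With arrays centred on their medians the median KD minus SCR was -0.47 on the short arm and -0.18 on the long arm. Quantile normalization gave -0.19 on the long arm and a difference between arms of -0.33. Members from a mean of at least 6 gave -0.38, -0.19 and a difference of -0.19, and members from at least 8 gave -0.27 on the long arm and a difference of -0.27. With 1 array left out the short arm ran from -0.57 to -0.50, the long arm from -0.25 to -0.23 and their difference from -0.32 to -0.27. Taking in each gene the median of the differences between same-numbered arrays, in place of the difference of group means, gave -0.52, -0.24 and -0.28.

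The border of KD minus WT lay 2 genes into the long arm (KIF21A and GXYLT1) with members from a mean of at least 8, 67 genes into it with squared deviations, and 0 genes from the centromere, beside an additional border, from a mean of at least 6. In KD minus SCR no border was found with squared deviations or from a mean of at least 6. Leaving out any array left both borders 0 genes from the centromere. Removing ALG10 and DDX11, an alternative chosen after seeing the data, also did.

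Counts of called members moved more. Against 35 higher and 181 lower in KD minus SCR and 37 and 188 in KD minus WT, Benjamini-Hochberg adjustment gave 126 and 499, and 126 and 487. A minimum of 2-fold gave 23 and 86 in KD minus SCR and 82 lower in KD minus WT. Fits on only the compared groups gave 102 and 84 lower, and the ANOVA 6 and 12, and 4 and 10. Members from a mean of at least 6 gave 57 higher in each, and from at least 8 gave 18 and 20. The array number as a replicate block gave 112 and 104 lower, a number shared by the arrays and nothing more. With 1 array left out KD minus SCR had 28 to 33 higher and 106 to 157 lower, and KD minus WT 28 to 32 higher and 108 to 145 lower. Lower members in KD minus SCR numbered 114, 106 and 109 without SCR 1, 2 and 3, and in KD minus WT 118 and 117 without KD 2 and 3 and 108, 110 and 120 without WT 1, 2 and 3. For SCR minus WT (2 higher, 2 lower), Benjamini-Hochberg gave 27 and 9, a minimum of 2-fold 1 higher, members from at least 8 1 lower, and the fit on only those groups and the replicate block 1 higher each. Leaving out 1 array gave 1 to 2 higher and 2 lower. The ANOVA gave 0 and 0, with adjusted p of 0.96 for C1QL4 and 1 for EMP1 and KRT7, and these 3 kept their call under the other alternatives run. The causes were not tested.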
